A study of Homo sapiens with 6 samples.

Results

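The receptors described here are 10 growth factor receptor tyrosine kinases, EGFR, ERBB2, ERBB3, MET, AXL, FGFR1, FGFR2, FGFR3, FGFR4 and EPHA2. They were taken by gene symbol as members of 1 protein class, a choice made with earlier results of these data known, and all 10 were found among the 58174 genes of the expression table. The RNA is described as coming from AGS cells, a human line established from a gastric adenocarcinoma. A negative control siRNA was given to the cells of the 3 si-NC libraries, which carry the genotype label wild type. An siRNA against FTO, the m6A RNA demethylase under study, was given to the cells of the 3 si-FTO libraries, which carry the genotype label FTO-/-. The study's methods describe transfection with siRNA against FTO, so the si-FTO libraries are treated here as a depletion. Both groups are labelled with the same cell line, and the time between transfection and harvest is not given in the sources used here.

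Receptor tyrosine kinases span the plasma membrane, bind a growth factor outside the cell and phosphorylate tyrosines inside it. Adaptors bound to these tyrosines start the RAS to ERK cascade and the PI3K to AKT pathway, and ERK in turn induces both growth genes and inhibitors of the same cascade. In gastric cancer, ERBB2, MET, EGFR and FGFR2 are known as genes that can be amplified, and ERBB2 is a drug target in the clinic.

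Every level below is a mean TPM, the authors' average over the libraries of a group, in which each gene's reads are scaled by its length and by the total. Levels of different genes can therefore be compared with each other. Over the whole table the mean TPM added up to 999973 for si-NC and 999960 for si-FTO, and 26830 and 29534 genes were listed at 0. The depth of the libraries and the spread between them are unknown here, so each difference here is one between 2 means, with no error and no check across replicates; the authors' own p-values and q-values were not used. A log2 ratio below divides mean TPM + 1 of si-FTO by that of si-NC, which understates the difference of low genes, whereas a fold is the plain ratio of the 2 means. A gene was called higher or lower when its log2 ratio was at least 1 in size, and the comparison took in the 20493 genes that reached 0.5 TPM in 1 or both groups. In bulk RNA, fewer cells that express a gene and less of its RNA in each cell cannot be told apart.

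FTO, the depleted gene, had 33.1 TPM in si-NC against 7.27 TPM in si-FTO, with a log2 ratio of -2.05. The labelled cell type was compared with markers of epithelial cells. Of the 10 epithelial markers, 8 were compared, 6 were higher in si-FTO and 1 was lower, where 11.4% of all genes compared were higher and 17.0% were lower. Their summed level was 69.5 TPM in si-NC against 5105 TPM in si-FTO, with KRT18 the most abundant in si-NC at 52.1 TPM and KRT8 in si-FTO at 3139 TPM. ELF3, an epithelial transcription factor, had 0.115 TPM and 93.3 TPM, and the claudin genes CLDN3, CLDN4 and CLDN7 had 0.165, 0.226 and 1.17 TPM in si-NC and 2.95, 2.70 and 14.8 TPM in si-FTO. Other epithelial markers were low or listed at 0. KRT19 was listed at 0 in si-NC and had 0.130 TPM in si-FTO, ESRP1 had 0.0830 TPM in si-NC and was listed at 0 in si-FTO, and EPCAM had 1.22 TPM and 0.113 TPM. CDH1, the gene of E-cadherin, had 3.67 TPM in si-NC against 0.685 TPM in si-FTO. The 8 mesenchymal markers summed to 456 TPM and 798 TPM, of which VIM gave 440 TPM and 752 TPM. Of these markers, 6 were compared, 2 were higher and 1 was lower. COL1A2, below the minimum for comparison, had 0.00982 TPM in si-NC and was listed at 0 in si-FTO. Of the endothelial markers, 3 of 4 were found and summed to 0.278 TPM and 41.3 TPM, where CDH5 alone gave 40.9 TPM in si-FTO and VWF had 0.00493 TPM and 0.0537 TPM. The 4 leukocyte markers summed to 15.9 TPM and 6.69 TPM, with LCP1 the most abundant in si-NC, CD68 in si-FTO and PTPRC listed at 0 in both groups. Whether the libraries of either group come from the labelled cell line was not tested. Whether the libraries under both labels come from like cells apart from FTO cannot be told from the group means. The differences below are therefore between the libraries labelled si-NC and si-FTO. The part of these marker differences in the receptor values was not tested.

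Of the 10 receptors, 6 were higher in si-FTO, 3 were lower and 1 was neither. AXL, EGFR, FGFR2, EPHA2, ERBB3 and MET were higher, FGFR1, FGFR3 and FGFR4 were lower, and ERBB2 differed least. Among all genes compared, 11.4% were higher, 17.0% were lower and 28.5% were called in either direction. The higher of the 2 means was above 14 TPM for every receptor, and among the 9481 genes that reach this level the shares were 13.2%, 14.0% and 27.2%. The median log2 ratio was 1.30 over the receptors and -0.20 over all genes compared. Relative to this shift of the median gene, the log2 ratios ran from -3.86 for FGFR1 to 4.83 for AXL, and the ratio of ERBB2 became 0.45. The summed level of the 10 receptors was 308 TPM in si-NC against 396 TPM in si-FTO, or 1.28-fold higher. None of the 10 receptors was listed at 0 in either group.

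**Figure D1:**
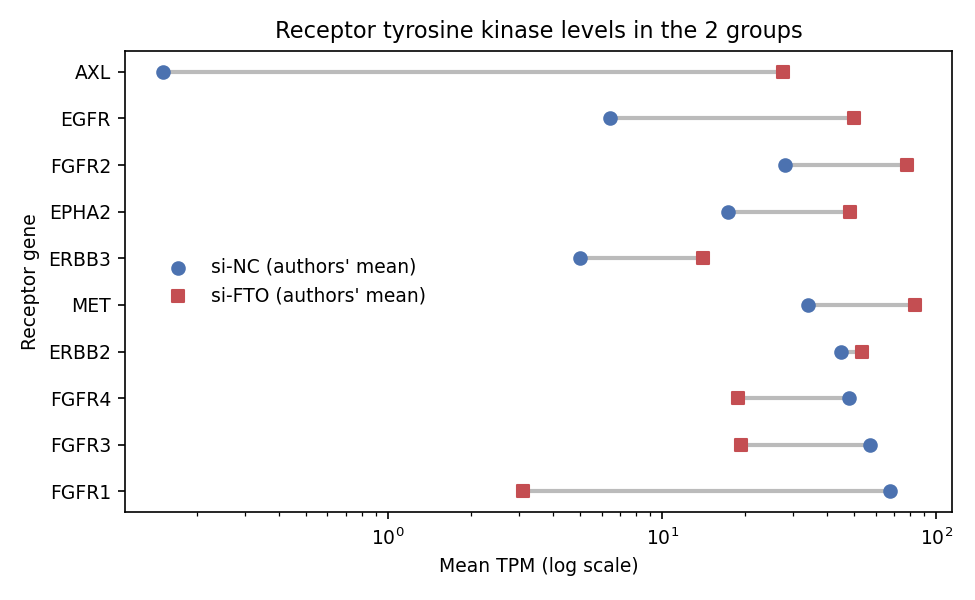
Mean TPM of the 10 receptors on a log axis, circles for si-NC and squares for si-FTO, each the authors' mean with no error available, ordered by log2 ratio. AXL spans the widest range, from 0.151 to 27.5 TPM, FGFR1 lies far lower in si-FTO, and the 2 values of ERBB2 almost meet.

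The order of the receptors by level differed between the groups. In si-NC, FGFR1, FGFR3 and FGFR4 came first at 67.6, 57.2 and 47.9 TPM, and EGFR, ERBB3 and AXL came last at 6.46, 4.99 and 0.151 TPM. In si-FTO, MET, FGFR2 and ERBB2 came first at 83.3, 78.1 and 53.4 TPM, and FGFR4, ERBB3 and FGFR1 came last at 18.9, 14.1 and 3.10 TPM. Neighbours in these orders, such as FGFR3 at 19.4 TPM and FGFR4 at 18.9 TPM in si-FTO, cannot be ranked with confidence, because the spread between libraries is unknown. Placed among all 58 receptor tyrosine kinases, FGFR1 went from rank 1 in si-NC to rank 22 in si-FTO, and MET from rank 8 to rank 1. AXL went from rank 50 to rank 13.

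The ERBB receptors bind ligands of the EGF and neuregulin families and signal as pairs. EGFR, located in GRCh37 on chromosome 7 from 55086710 to 55279321 (plus strand), binds EGF, TGF-alpha and related ligands. Its level was 6.46 TPM in si-NC against 50.1 TPM in si-FTO, which is 7.76-fold higher, with a log2 ratio of 2.78. Ordered from the highest log2 ratio down, EGFR was at rank 570 of the genes compared. ERBB2, on chromosome 17 from 37844167 to 37886679, has no known ligand of its own and is the preferred partner of the other ERBB receptors. It had 44.9 TPM in si-NC against 53.4 TPM in si-FTO, with a log2 ratio of 0.25, below the threshold. ERBB3, on chromosome 12 from 56470583 to 56497289, binds neuregulins and has a kinase domain with little activity, so that it depends on a partner. It had 4.99 TPM in si-NC against 14.1 TPM in si-FTO, with a log2 ratio of 1.33. ERBB4, the remaining family member, had 1.10 TPM in si-NC and was listed at 0 in si-FTO. The family sum was 57.4 TPM in si-NC against 118 TPM in si-FTO, or 2.05-fold higher. ERBB2 made up 78.2% of it in si-NC and 45.4% in si-FTO, while the share of EGFR was 11.2% and 42.6%. Most of the family's RNA was thus ERBB2 in si-NC, whereas ERBB2 and EGFR had similar shares in si-FTO.

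The 4 FGF receptors bind fibroblast growth factors together with heparan sulfate or Klotho coreceptors. FGFR1, which lies on the minus strand of chromosome 8 from 38257733 to 38326352, had 67.6 TPM in si-NC against 3.10 TPM in si-FTO. It was 21.8-fold lower in si-FTO, with a log2 ratio of -4.07, which was rank 202 from the lowest. FGFR3, on chromosome 4 from 1795020 to 1810599, had 57.2 TPM and 19.4 TPM, with a log2 ratio of -1.51. FGFR4, on chromosome 5 from 176513906 to 176525145, is the receptor that works with beta-Klotho in bile acid control by FGF19. It had 47.9 TPM and 18.9 TPM, with a log2 ratio of -1.30. FGFR2 differed the other way. This gene, on the minus strand of chromosome 10 from 123237846 to 123357972, had 28.0 TPM in si-NC against 78.1 TPM in si-FTO, with a log2 ratio of 1.45. The family sum was 201 TPM in si-NC against 120 TPM in si-FTO, 1.68-fold lower. In si-NC the sum was spread over all 4 genes, with 33.7% from FGFR1, 28.5% from FGFR3, 23.9% from FGFR4 and 14.0% from FGFR2. In si-FTO, FGFR2 alone gave 65.4% and FGFR1 gave 2.59%. FGFR2 has an epithelial and a mesenchymal splice form, and values per gene do not separate them.

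**Figure D2:**
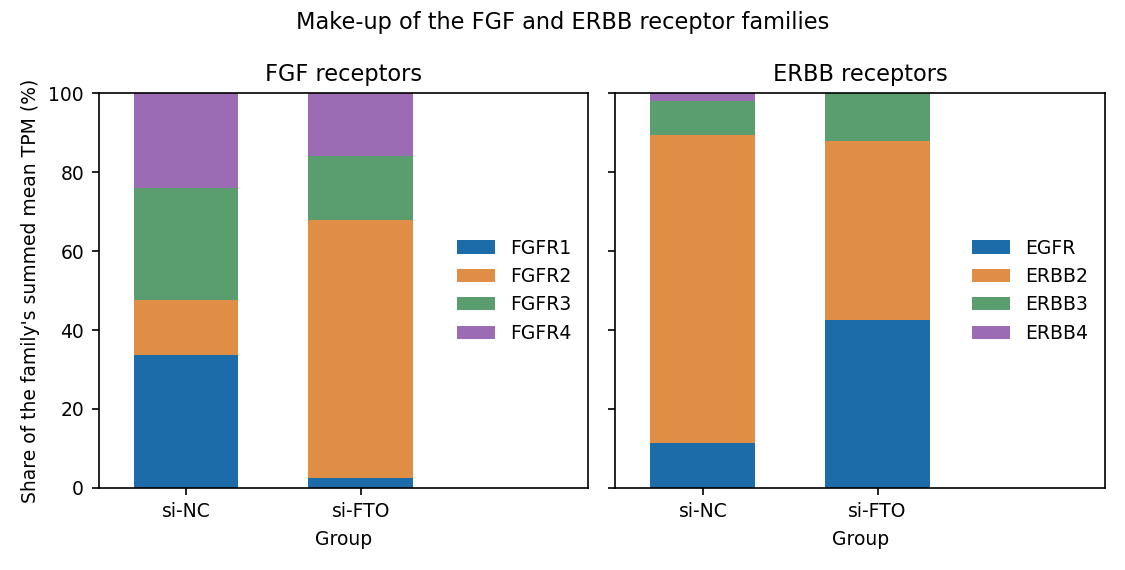
Share, in percent, of the summed mean TPM of the FGF receptor family (left) and the ERBB receptor family (right) that each gene gives in si-NC and si-FTO, drawn as stacked bars from 0 to 100. FGFR2 takes 14.0% of its family in si-NC against 65.4% in si-FTO, and EGFR takes 11.2% and 42.6% of its own.

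MET, AXL and EPHA2 belong to different subfamilies and were all higher in si-FTO. MET, the receptor of hepatocyte growth factor, lies on chromosome 7 from 116312250 to 116438431. It had 33.9 TPM in si-NC against 83.3 TPM in si-FTO, which is 2.46-fold higher, with a log2 ratio of 1.27, the closest to the threshold among the 9 called receptors. AXL, on chromosome 19 from 41725128 to 41767671, is a receptor of the TAM family that binds GAS6 and is known from mesenchymal and drug-tolerant cancer cells. Its level was 0.151 TPM in si-NC against 27.5 TPM in si-FTO, with a log2 ratio of 4.63 at rank 175 from the highest. The plain fold of AXL was 182, but it rests on a mean close to 0, whose error is unknown, and the log2 ratio moved to 6.78 with a pseudocount of 0.1 TPM. EPHA2, on the minus strand of chromosome 1 from 16450832 to 16482564, binds ephrin-A ligands on neighbouring cells. It had 17.4 TPM in si-NC against 48.3 TPM in si-FTO, with a log2 ratio of 1.42.

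The starts of 4 of these genes are shown. They let the receptors with the highest log2 ratios, EGFR and AXL, be set beside a pair of lower receptors, FGFR3 and FGFR4. FGFR1, whose log2 ratio was larger in size than that of EGFR, had no window to show. Each window runs from 250 bases before to 50 bases after the RefSeq start and was taken from a table of GRCh38.p14, and each matched GRCh37 exactly and once. The GRCh37 positions are chr7:55086460-55086759 for EGFR, chr19:41724878-41725177 for AXL, chr4:1794770-1795069 for FGFR3 and chr5:176513666-176513965 for FGFR4, all on the plus strand. Capitals mark the GC box, GGGCGG on either strand, the word bound by factors of the Sp family.
EGFR: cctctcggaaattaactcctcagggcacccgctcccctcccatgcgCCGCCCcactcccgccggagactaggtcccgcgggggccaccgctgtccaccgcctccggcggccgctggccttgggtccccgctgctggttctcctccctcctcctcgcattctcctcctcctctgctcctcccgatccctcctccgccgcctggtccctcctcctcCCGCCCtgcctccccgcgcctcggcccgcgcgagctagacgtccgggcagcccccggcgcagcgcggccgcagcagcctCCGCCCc
AXL: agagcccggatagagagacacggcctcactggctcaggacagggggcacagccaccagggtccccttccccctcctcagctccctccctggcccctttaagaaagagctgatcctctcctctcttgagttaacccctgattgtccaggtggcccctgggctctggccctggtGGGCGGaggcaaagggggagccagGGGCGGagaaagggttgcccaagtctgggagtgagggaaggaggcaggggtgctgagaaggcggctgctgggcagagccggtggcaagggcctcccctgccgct
FGFR3: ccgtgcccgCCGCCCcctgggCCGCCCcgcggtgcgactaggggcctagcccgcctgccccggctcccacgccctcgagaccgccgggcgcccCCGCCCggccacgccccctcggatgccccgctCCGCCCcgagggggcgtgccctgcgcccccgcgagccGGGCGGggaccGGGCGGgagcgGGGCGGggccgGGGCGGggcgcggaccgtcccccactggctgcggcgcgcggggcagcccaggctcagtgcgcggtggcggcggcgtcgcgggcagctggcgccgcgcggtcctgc
FGFR4: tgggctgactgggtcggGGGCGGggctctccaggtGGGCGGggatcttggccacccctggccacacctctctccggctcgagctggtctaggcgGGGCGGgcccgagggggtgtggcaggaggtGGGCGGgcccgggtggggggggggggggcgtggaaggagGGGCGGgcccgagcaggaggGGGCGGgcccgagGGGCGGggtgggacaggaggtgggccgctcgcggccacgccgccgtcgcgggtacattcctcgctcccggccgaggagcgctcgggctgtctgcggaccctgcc
The lower receptors FGFR3 and FGFR4 held 8 and 7 GC boxes in these windows, and the higher receptors EGFR and AXL held 3 and 2. Their GC content was 86.3% and 78.7%, compared with 75.3% and 66.0%. Of the other receptors, FGFR2, which was higher, held 5, MET held 3, EPHA2 held 1 and ERBB2 held 0. In GC content the groups overlapped, since the window of FGFR2 had 79.3%. Whether the number of GC boxes goes with the direction of a receptor was not tested, and FGFR3 and FGFR4 were the only lower receptors with a window. The GC box occurred in 45.0% of 35116 windows of the same length and in 7 of the 8 receptor windows at the annotated gene start. The share of all windows also covers further starts of a gene, so these are not like windows. At further starts of the receptors, 1 window of FGFR2 held 1 GC box and the others held 0. The AP-1 word TGANTCA is bound by FOS and JUN proteins and does not overlap the GC box. It occurred in 7.71% of all windows and in 1 of the 8 at the gene start, that of ERBB2. A window of EGFR at a further start held 2 AP-1 words, and the other further windows held 0. Of the 10 receptors, all but ERBB3 and FGFR1 had an entry in the table, 8 genes with 15 windows, and a match describes letters only.

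**Figure D3:**
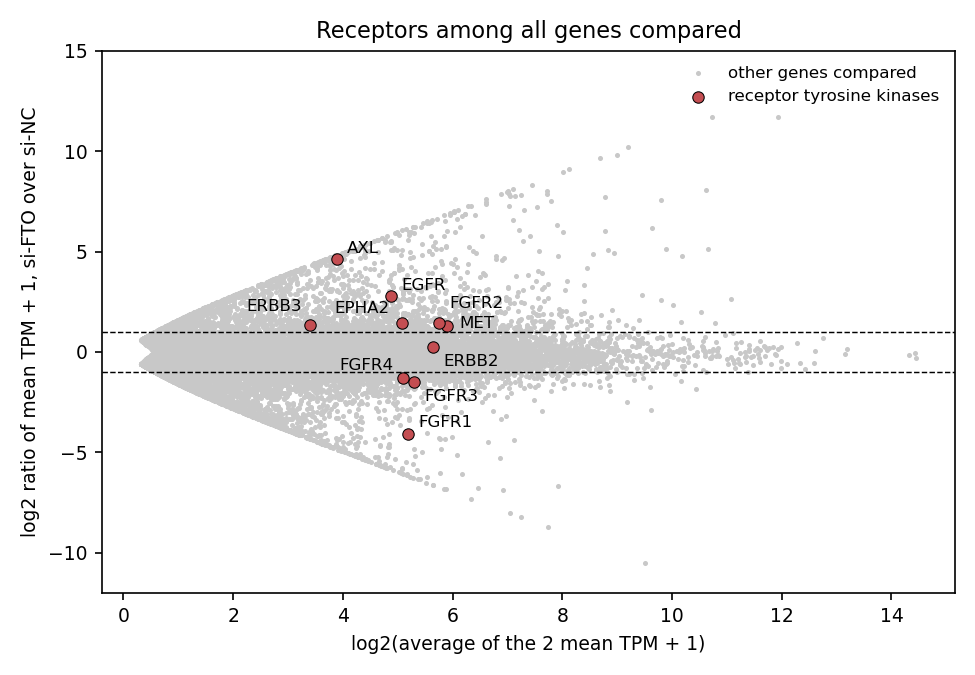
Log2 ratio of mean TPM + 1, si-FTO over si-NC, against log2 of the average mean TPM + 1, with each of the 20493 genes compared as a grey point and the 10 receptors in red; dashed lines mark a log2 ratio of 1 in size. All but ERBB2 lie outside the dashed lines, and AXL (4.63) and FGFR1 (-4.07) lie farthest out.

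The genes around each receptor were read to see whether it differed alone or along with its neighbourhood. For each receptor, the 25 compared genes on either side on its chromosome were taken, in the annotation on GRCh37. The neighbours of AXL had a median log2 ratio of -0.20, and 0 of 50 exceeded AXL. EGFR had a neighbour median of -0.28, with 2 of 50 above it. ERBB3 had 0.14 and 1 of 50, and FGFR2 had -0.28 and 3 of 50. From the highest log2 ratio down, AXL, EGFR, FGFR2 and ERBB3 were at ranks 175, 570, 1516 and 1681 of the 20493 genes compared. Genes at such ranks have few genes above them in most regions, so these counts alone do not set a receptor apart from its neighbourhood. Whether the counts differ from those in other regions was not tested. MET had a neighbour median of -0.27, with 3 of 50 above it. On the caveolin side of MET, CAV1 had 9.98 TPM and 33.6 TPM, with a log2 ratio of 1.66, while CAPZA2 on the other side had 58.8 TPM and 28.5 TPM, with a log2 ratio of -1.02, both named after their values were seen. EPHA2 had a neighbour median of 0.06 and ERBB2 of 0.07, with 4 and 19 of 50 above them. The neighbour medians of ERBB2 and ERBB3 changed sign with 50 genes on each side, to -0.10 and -0.0332.

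Around the 3 lower FGF receptors the neighbour medians were below that of all genes, but above the threshold of -1. The neighbour median was -0.69 for FGFR1, -0.53 for FGFR3 and -0.83 for FGFR4, compared with -0.20 over all genes. That of FGFR1 moved to -0.48 with 10 genes and -0.40 with 50 genes on each side, and to 0 with no minimum level, where those of FGFR3 and FGFR4 were -0.12 and -0.43. FGFR1 was lower than 49 of its 50 neighbours, and FGFR3 than 47 of 50. From the lowest log2 ratio up, FGFR1 and FGFR3 were at ranks 202 and 1916 of the 20493 genes compared. Genes at such ranks are lower than most genes of most regions, so these counts alone do not set FGFR1 or FGFR3 apart from its neighbours. FGFR4 differed from its neighbour median by only -0.47, and 13 of 50 neighbours had a more negative ratio. Among the neighbours, 19 of 50 were called lower around FGFR1, 14 of 50 around FGFR3 and 19 of 50 around FGFR4, compared with 17.0% of all genes. Whether genes of these regions differ together was not tested. LETM2, which overlaps FGFR1 on the opposite strand, had 5.73 TPM in si-NC against 0.866 TPM in si-FTO. The overlapping genes at other receptors include MIEN1 and PGAP3 at ERBB2, with log2 ratios of -0.14 and -0.10, and the antisense genes EGFR-AS1 and EPHA2-AS1, which reached 0.0979 and 1.17 TPM in si-FTO. Although the library kit keeps strand, whether strand was used in quantification is not given in the sources used here, and reads of overlapping genes may have been shared.

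**Figure D4:**
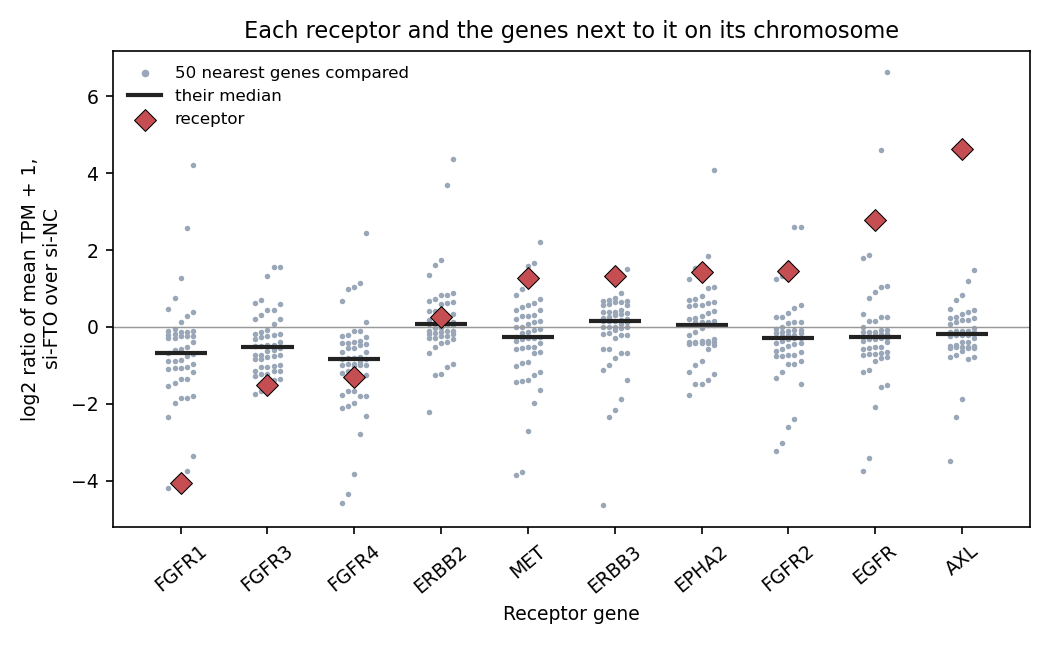
Log2 ratio of mean TPM + 1, si-FTO over si-NC, for each receptor (diamond) and for the 50 compared genes nearest to it on its chromosome (points), with their median as a bar. The diamond of AXL lies above all of its points, whereas that of FGFR4 lies within points whose median is -0.83.

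The ligands form small lists, and their counts are to be read beside the 11.4% of all genes that were higher and the 17.0% that were lower. Of the 11 ligands of ERBB receptors, 7 were compared, 2 were higher and 2 were lower, with a median log2 ratio of 0.88, which was 0.16 with no minimum level and turned to -1.28 at a minimum of 5 TPM. NRG2, a neuregulin, had 6.90 TPM in si-NC against 0.0155 TPM in si-FTO, and HBEGF had 6.59 TPM and 2.13 TPM, with a log2 ratio of -1.28. AREG, the gene of amphiregulin and a ligand of EGFR, had 0.252 TPM and 1.76 TPM, and NRG4 had 7.13 TPM and 16.4 TPM, with a log2 ratio of 1.09. NRG4 was the most abundant of the ERBB ligands in both groups. GAS6, the ligand of AXL, was higher in si-FTO at 16.4 TPM than in si-NC at 5.45 TPM, with a log2 ratio of 1.43. HGF, the ligand of MET, had 0.214 TPM in si-NC and was listed at 0 in si-FTO. It was not compared because neither mean reached 0.5 TPM. With AXL at 0.151 TPM in si-NC, receptor and ligand were present together above 10 TPM only in si-FTO for the pair of AXL and GAS6.

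Among the 18 fibroblast growth factors, 8 were compared, of which 1 was higher and 3 were lower, beside 11.4% and 17.0% of all genes. FGF18 was higher, with 0.215 TPM in si-NC against 4.42 TPM in si-FTO, with a log2 ratio of 2.16. FGF5 and FGF8 had 1.37 TPM and 1.15 TPM in si-NC and were listed at 0 in si-FTO, and FGF17 had 1.12 TPM and 0.0182 TPM. FGF2 was the most abundant in both groups, at 5.71 TPM and 9.77 TPM. The median log2 ratio of the FGF ligands was -0.54, and 0.0901 over the 6 that were above 0 in both groups; it was 0.68 at a minimum of 5 TPM and -2.07 with a pseudocount of 0.1. The ephrin-A ligands of EPHA2 were compared in full, with 1 of 5 higher and 2 lower, too few to set against these shares. EFNA1 had 15.9 TPM in si-NC against 468 TPM in si-FTO, with a log2 ratio of 4.79, while EFNA5 had 13.2 TPM and 2.78 TPM and EFNA2 had 4.64 TPM and 1.10 TPM. EPHA2 and EFNA1 were thus both higher in si-FTO, the ligand by 29.4-fold and the receptor by 2.77-fold.

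Of 15 genes of coreceptors, proteases and protease inhibitors, which hold or process the ligands, 12 were compared, 4 were higher and 3 were lower, beside 11.4% and 17.0% of all genes. The median log2 ratio of the list was 0.41, or -0.0125 with no minimum level. ST14, the gene of matriptase, a membrane protease that activates pro-HGF, had 0.0376 TPM in si-NC against 39.3 TPM in si-FTO, with a log2 ratio of 5.28. SPINT2, the gene of an inhibitor of such proteases, had 38.2 TPM in si-NC against 7.99 TPM in si-FTO, with a log2 ratio of -2.13. Heparan sulfate proteoglycans, which present FGF to its receptors, differed in both directions. GPC4 had 28.9 TPM in si-NC and was listed at 0 in si-FTO, and SDC2 had 23.5 TPM and 4.41 TPM. GPC1 had 20.4 TPM in si-NC against 49.1 TPM in si-FTO, with a log2 ratio of 1.22. HPN, the gene of the protease hepsin, had 0.0228 TPM and 1.33 TPM.

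The relay from the receptors inward had calls in both directions. All 34 genes of adaptors, RAS, RAF, MEK, ERK, PI3K, AKT and STAT3 were compared, and 27 were neither higher nor lower, with 3 higher, 4 lower and a median log2 ratio of -0.02, which was 0.15 under median-ratio scaling of the groups. Over all genes the shares were 11.4% higher and 17.0% lower. STAT3, the transcription factor downstream of several receptors, had 31.8 TPM in si-NC against 118 TPM in si-FTO, with a log2 ratio of 1.86. PIK3CB, a catalytic PI3K subunit, had 13.6 TPM and 36.9 TPM. On the lower side, PIK3R1, a regulatory PI3K subunit, had 8.61 TPM and 1.15 TPM. CRKL, an adaptor, had 112 TPM and 48.4 TPM, with a log2 ratio of -1.19. Under the same scaling, 6 of the 34 were higher in place of 3, beside 13.1% of all genes.

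Of 12 genes listed as transcripts that ERK is known to induce, with the inhibitors it also induces kept in a list of their own, 11 were compared, 8 were higher and 1 was lower, beside 11.4% and 17.0% of all genes. The median log2 ratio of the list was 1.57 beside -0.20 over all genes. FOS, the immediate early gene of AP-1, had 25.04 TPM in si-NC against 888 TPM in si-FTO, with a log2 ratio of 5.09. ETV4 and ETV5, ETS factors induced by FGF and ERK signalling, had 0.263 TPM and 0.443 TPM in si-NC, and 17.7 TPM and 13.3 TPM in si-FTO. ETV1, of the same subfamily, differed the other way, with 1.47 TPM in si-NC and a listed value of 0 in si-FTO. PHLDA1 and CCND1 were neither higher nor lower, with log2 ratios of 0.11 and 0.50. RNA levels do not measure phosphorylated ERK, and receptor activity was not tested.

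Of 19 genes of inhibitors and turnover of the receptors and of ERK, 18 were compared, 4 were higher and 3 were lower, beside 11.4% and 17.0% of all genes. The median log2 ratio of the list was 0.16. DUSP4, a phosphatase of ERK, had 2.23 TPM in si-NC against 27.9 TPM in si-FTO, with a log2 ratio of 3.16, and DUSP5 had 7.65 TPM and 17.5 TPM. SPRY4 had 0.131 TPM and 1.78 TPM, whereas its paralog SPRY1, also a Sprouty inhibitor of receptor signalling, had 23.8 TPM and 3.06 TPM, with a log2 ratio of -2.61. DUSP6 and SPRY2 were neither higher nor lower, with log2 ratios of 0.65 and -0.76. LRIG1 and LRIG3 encode membrane proteins of 1 family, of which LRIG1 restrains ERBB receptors. LRIG1 had 25.8 TPM in si-NC against 11.5 TPM in si-FTO, and LRIG3 had 23.2 TPM and 9.80 TPM.

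**Figure D5:**
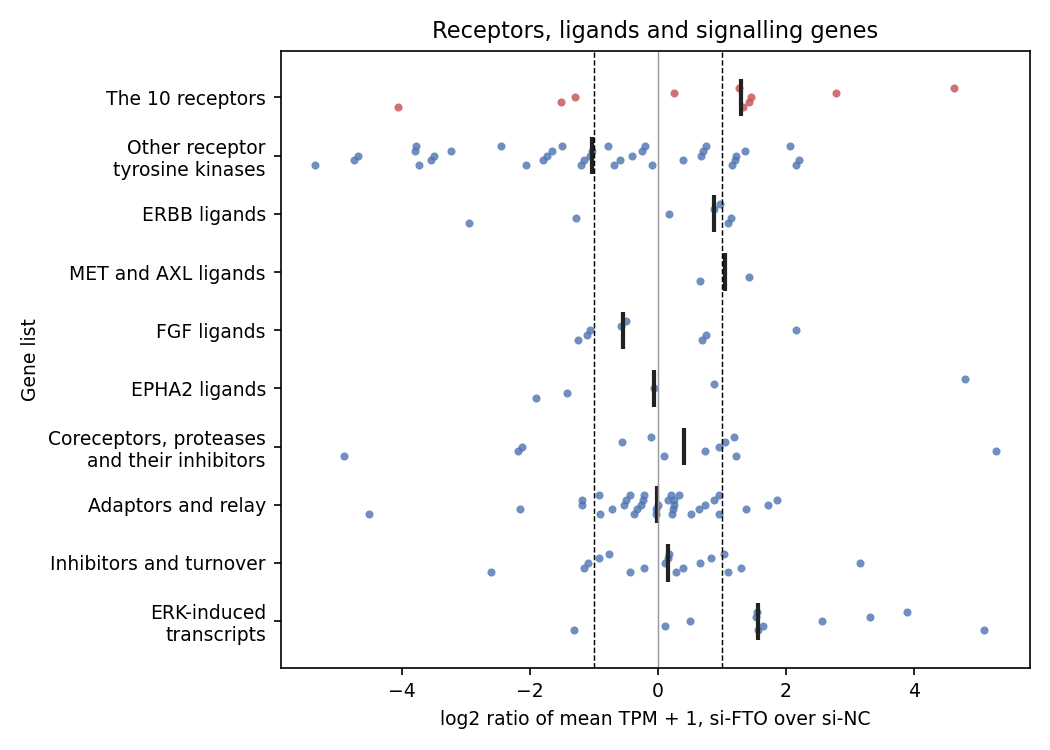
Log2 ratio of mean TPM + 1, si-FTO over si-NC, for the 10 receptors (red) and the compared genes of each list (blue), with the median of each list as a black bar and dashed lines at a log2 ratio of 1 in size. The ERK-induced transcripts have a median of 1.57, while that of the 34 genes of the adaptors and relay is -0.02 (0.15 under median-ratio scaling).

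Of the other 48 receptor tyrosine kinases, 37 were compared, 7 were higher and 19 were lower, beside 11.4% and 17.0% of all genes. Their median log2 ratio was -1.02, and -0.25 over the 27 above 0 in both groups. At a minimum of 5 TPM, 7 were higher and 9 lower, beside 13.3% and 17.4% of all genes, and the median moved to -2.51 with a pseudocount of 0.1. FLT4, a receptor of VEGF-C, had 41.8 TPM in si-NC against 0.0346 TPM in si-FTO, EPHA8 had 26.1 TPM and 0.00631 TPM, and PTK7, a catalytically inactive receptor, had 48.2 TPM and 0.900 TPM. EPHA3, EPHA4, EPHA7 and KIT had 10.3, 12.7, 12.3 and 10.8 TPM in si-NC and were listed at 0 in si-FTO. On the higher side, PDGFRB had 0.370 TPM and 5.34 TPM, MST1R, the MET relative that binds MSP, had 0.530 TPM and 5.85 TPM, and ROR2, a receptor of WNT5A, had 8.82 TPM and 40.2 TPM. Over all 58 receptor tyrosine kinases the summed level was 729 TPM in si-NC against 771 TPM in si-FTO. At least 1 TPM was reached by 40 of these genes in si-NC, by 27 in si-FTO and by 22 in both. The 10 receptors gave 42.3% of this sum in si-NC and 51.4% in si-FTO.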

How the data were processed

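RNA described as that of AGS cells was sequenced from 3 si-NC and 3 si-FTO libraries, made with a stranded kit. The study's methods give mapping to hg19 with Bowtie and quantification with RSEM, and the submitters' processing notes list HISAT2; versions and annotation are not given in the sources used here. The deposited unit is TPM, averaged by the authors over each group, for 58174 genes. The number of columns with values of single libraries was 0, and depth is unknown because TPM keeps none. The deposited tables also hold the authors' own log2 fold change, p-value and q-value, which were not used, and a second table of genes selected on them was left out.

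A value of 0.0001 TPM was read as 0. Identifiers were matched to symbols for 55726 genes. The log2 ratio used a pseudocount of 1 TPM, a minimum mean TPM of 0.5 in at least 1 group and a threshold of 1. Neither limma nor another test could be run on 2 means. Alternatives were a pseudocount of 0.1, minima of 0, 5 and 14 TPM, thresholds of 0.5 and 2, median-ratio scaling and quantile normalization. Further alternatives were 0.0001 kept as a value together with no pseudocount, and 10 or 50 neighbours on each side. The minimum of 14 TPM, set from the lowest of the receptors' higher means, and the medians without genes listed at 0 were added after seeing the data.

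The receptors and lists were chosen with earlier results of these data known. Named list genes are the called ones that rank 1 to 3 by log2 ratio in either direction, and those with at least 10 TPM in 1 group and listed at 0 in the other; others were named after their values were seen. Some genes covered by this rule are not reported here. Coordinates are from the GENCODE annotation lifted to GRCh37 and promoter windows from RefSeq on GRCh38.p14. Calculations used Python 3.11.15, numpy 2.4.6 and pandas 2.3.3 and were tested on simulated data.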

Additional observations from a re-analysis of the deposited data

How the results depend on the processing

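No paired analysis was possible because the table holds 1 mean per group; for the same reason no library was left out, and the missing error and depth limit every value. Each of the 9 called receptors kept its direction and stayed past the threshold, and ERBB2 stayed below it, under the 4 settings tried for single receptors, with log2 ratios from 4.63 to 7.51 for AXL, from 2.78 to 2.96 for EGFR and from -4.45 to -3.88 for FGFR1. MET ranged from 1.27 to 1.44 and FGFR4 from -1.34 to -1.13.

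With a threshold of 2, 2 receptors were higher (AXL and EGFR) and 1 was lower (FGFR1), beside 976 and 1241 of all genes, or 4.76% and 6.06%. The numbers higher and lower were then 3 and 11 of the other receptor tyrosine kinases, 0 and 1 of the ERBB ligands, 0 and 2 of the relay, 1 and 1 of the inhibitors and 4 and 0 of the ERK-induced transcripts, with 0 higher MET and AXL ligands, 1 higher gene of ligand handling, and 0 lower EPHA2 and 0 lower FGF ligands. With a threshold of 0.5, 4326 genes (21.1%) were higher and 7160 (34.9%) lower; 9 and 8 of the relay, 3 and 5 of the FGF ligands, 4 ERBB ligands, 2 EPHA2 ligands and 2 MET and AXL ligands were higher or, for the second of a pair, lower, and 5 inhibitors were lower.

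The minimum level mattered for lists with low genes. At a minimum of 5 TPM, 2254 genes were lower in place of 3492, which is 17.4% in place of 17.0% (13.3% higher), the median log2 ratio became -1.28 for ERBB ligands (1 higher), 0.68 for FGF ligands (0 higher, 0 lower), 0.41 for EPHA2 ligands (1 lower) and -0.25 for the other receptor tyrosine kinases (9 lower), and 0 ERK-induced transcripts were lower. At 14 TPM, added after the data were seen, the numbers were 1253 and 1323. Both minima leave fewer genes to count. With no minimum, 4.02% and 6.0% of genes were higher and lower, and medians were -0.43 for the other receptor tyrosine kinases, 0.65 for MET and AXL ligands, 0.16 for ERBB ligands, -0.0125 for ligand handling and -0.0227, 0, -0.12 and -0.43 for the genes nearest to ERBB2, FGFR1, FGFR3 and FGFR4. Without genes listed at 0 in 1 group, also added later, the median was 0.0901 for FGF ligands and -0.25 for the other receptor tyrosine kinases.

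With a pseudocount of 0.1, 16.0% of all genes were higher and 25.1% lower, and medians were 1.19 for ERBB ligands (4 higher), -2.07 for FGF ligands (2 higher, 5 lower), -2.51 for the other receptor tyrosine kinases and -1.03 for the genes nearest to FGFR4. Median-ratio scaling moved the median of all genes from -0.20 to -0.07, with 13.1% of all genes higher and 14.6% lower. List medians became 0.15 for the relay (6 higher), 0.11 for EPHA2 ligands (2 higher) and -0.98 for the other receptor tyrosine kinases. Under quantile normalization 13.7% of all genes were higher and 14.2% lower. List medians were then 0.0303 for the relay, 1.09 for ERBB ligands (4 higher, 1 lower) and -0.82 for the other receptor tyrosine kinases. With this setting 2 EPHA2 ligands were higher and 1 FGF ligand was lower. The genes nearest to ERBB2 had a median of -0.16 with 10 and -0.10 with 50 on each side, those nearest to ERBB3 -0.0332 with 50, and those nearest to FGFR1 -0.48 with 10 and -0.40 with 50. Other causes of these moves were not tested.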

Other observations

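Ligands of the other receptor tyrosine kinases, a list of 20 genes added after the data were seen, had 16 genes compared, with 5 higher and 5 lower in si-FTO, beside 11.4% and 17.0% of all genes. All 3 ephrin-B genes, whose products bind EPHB receptors on neighbouring cells, were lower. EFNB1 had 24.6 TPM in si-NC against 8.01 TPM in si-FTO, EFNB2 had 10.3 TPM and 0.133 TPM, and EFNB3 had 10.3 TPM and 0.0352 TPM. WNT5A, a ligand of ROR2, had 9.01 TPM in si-NC against 43.7 TPM in si-FTO, so that ligand and receptor were both higher. PDGFA and PDGFB, ligands of PDGF receptors, had 1.80 TPM and 0.139 TPM in si-NC, and 10.6 TPM and 2.19 TPM in si-FTO. VEGFB was the most abundant gene of the list in both groups, at 51.8 TPM and 103 TPM, and its log2 ratio of 0.98 was just below the threshold. IGF1 was listed at 0 in both groups. These are differences between 2 group means with no check across replicates here.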
